A study of Rattus norvegicus with 6 samples.

Results

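The chemokine and chemokine receptor genes of rat sciatic nerve were taken from the deposited count table by their symbols (Ccl, Cxcl, Cx3cl1 and Xcl1 ligands, their receptors, the atypical receptors Ackr1 to Ackr4, and Ccrl2). The symbols picked 58 of 29884 genes, made up of 34 ligands, 19 signalling receptors and 5 atypical receptors. Messenger RNA had been sequenced from wild type rats with chronic constriction injury (CCI) of the sciatic nerve, a model of neuropathic pain. The 3 conduit libraries came from CCI nerves after PLLA-PCL-RVC treatment, a polymer nerve conduit that the study describes as piezoelectric and as carrying ropivacaine, a local anaesthetic. The 3 untreated libraries came from CCI nerves alone, so both groups carry the injury. The labels used here give no strain, age, sex or time after injury, and do not say whether each library is a separate animal, so the tests speak of the variation among these 6 libraries, which may be technical. Uninjured nerve and a conduit without the drug were not analysed here.

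Chemokines are small secreted proteins that guide the migration of leukocytes. They are grouped by the spacing of their first cysteines into CC, CXC, CX3C and XC ligands, and they act through G protein-coupled receptors that couple mainly to the inhibitory Gi proteins. Atypical receptors bind chemokines without this coupling and take them up or carry them across the endothelium. In injured peripheral nerve, Schwann cells, macrophages and endothelial cells release chemokines such as CCL2, which draws CCR2-bearing monocytes into the nerve, and several ligands also act on sensory neurons that carry their receptors.

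Library totals ran from 38401951 to 42225086 counts. Libraries correlated at 0.965 to 0.991 within a group and at 0.866 to 0.911 between groups (Spearman, over the genes tested), and the 5 batch numbers in the labels are each found in 1 group only, so batch and treatment cannot be told apart. Values are CPM, counts scaled to library size and by TMM (trimmed mean of M-values), and log2 fold changes are conduit over untreated from edgeR, with Benjamini-Hochberg adjusted p-values over all genes tested and a threshold of 0.05. Of 15464 genes tested, 50.2% were called, 26.2% lower and 24% higher in conduit nerves, and 61.7% had groups that did not overlap. Scaling by library totals alone moved the median log2 fold change of all genes to -0.43, against -0.04 with TMM, and gave 6554 genes lower and 2291 higher, against 4049 and 3711. The TMM factors were 0.852 to 0.904 in conduit and 1.12 to 1.18 in untreated libraries. The Schwann cell markers Mbp, Pmp22, S100b and Sox10 were all present and rose. Summed skeletal muscle markers stood at 9363 CPM in untreated replicate 1 and at no more than 68.9 CPM in the other libraries.

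Most chemokine and receptor genes that could be tested were lower in conduit nerves. Of the 58 genes, 43 passed the count filter, and of those 23 fell, 1 rose (Cxcl9) and 19 were not called, so 53.5% fell, beside 26.2% of all genes. Those called in either direction made up 55.8%, near the 50.2% of all genes, and 26 of the 43 had groups that did not overlap, a share close to the 61.7% of all genes. Their median log2 fold change was -1.98, beside -0.04 for all genes. The filter itself bears on this count. Of the 43 genes, 28 reached its level in every library of both groups, and 13 of these fell and 1 rose. Another 13 reached it in all untreated libraries but not in all conduit libraries, so they passed through the group in which they are high, and 10 of them fell. The other 2, Ccl22 and Ccl17, reached it in all conduit but not in all untreated libraries, and neither was called. Without untreated replicate 1 the count was 25 lower and 0 higher, and with scaling by library totals it was 29 lower and 0 higher. The tissue is bulk nerve, so fewer cells of a type and less RNA per cell cannot be told apart in any of these values.

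The make-up of the ligand transcripts differed between the groups. Summed over the 34 ligands, the deposited FPKM (fragments scaled to transcript length and library size, so that levels of different genes can be set side by side) came to 159, 122 and 223 in the conduit libraries, against 1685, 2063 and 1551 in the untreated libraries. FPKM is not scaled by TMM. In CPM, which is scaled by TMM but not by length, the sums were 331, 334 and 464 in conduit and 2352, 2726 and 2129 in untreated libraries. Cxcl14 held 9.93%, 16.5% and 14.4% of the ligand FPKM in the conduit libraries, against 62.2%, 67.1% and 49.4% in the untreated libraries. In conduit nerves no ligand dominated, and Ccl21 (14.8 ± 8.06%), Cxcl12 (14.7 ± 3.96%), Cxcl14 (13.6 ± 3.36%), Ccl6 (12.9 ± 2.69%) and Cxcl9 (10.6 ± 5.08%) held mean shares whose ranges over the libraries overlapped (SD, n = 3). In untreated nerves Cxcl14 (59.5 ± 9.14%) was followed by Ccl6 (13.9 ± 5.39%), Ccl21 (8.15 ± 5.46%) and Ccl2 (5.54 ± 1.16%). The range of Ccl21 overlapped those of both neighbours, while Ccl6 held more than Ccl2 in every untreated library.

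**Figure D1:**
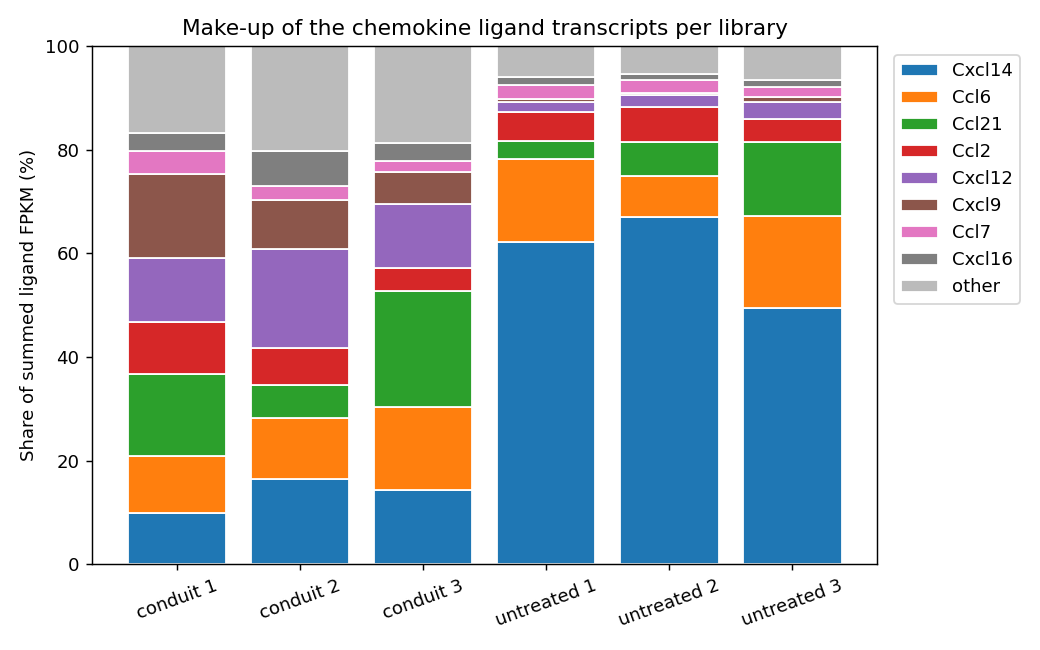
Share of the summed FPKM of the 34 ligands held by 8 named ligands and by the others, as stacked bars from 0 to 100% for each library, conduit left and untreated right. Cxcl14 takes 9.93% to 16.5% of each conduit bar and 49.4% to 67.1% of each untreated bar.

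The ligands of CCR2, the receptor of inflammatory monocytes, were all lower in conduit nerves, 3 of 3, where 26.2% of all genes were lower. Of the 3, Ccl12 reached the filter level through the untreated libraries alone, in which it is high. Ccl2, monocyte chemoattractant protein, was at 14.2, 7.89 and 8.49 CPM in the conduit libraries, against 64.2, 91.6 and 47.4 CPM in the untreated libraries (log2 fold change -2.73 ± 0.32 SE, adjusted p = 0.000513). Every conduit library was below every untreated one. Ccl7, a close relative that also binds CCR1 and CCR3, was at 6.38, 3.11 and 4.09 CPM in the conduit libraries, against 34.6, 35.8 and 21.3 CPM in the untreated libraries (log2 fold change -2.75 ± 0.32 SE, adjusted p = 0.000496), again without overlap. Ccl12, a CCR2 ligand described in mouse, was at 0.220, 0 and 0.0524 CPM in the conduit libraries, against 2.58, 4.64 and 1.56 CPM in the untreated libraries (log2 fold change -4.97 ± 0.91 SE, adjusted p = 0.00342). Its conduit value rests on 10 counts, 8 of them in conduit replicate 1, and without that library its log2 fold change was -6.60. Per length, Ccl2 was the most abundant of the 3 in both groups, at 11.4 ± 3.86 FPKM in conduit and 99.8 ± 35.8 FPKM in untreated nerves.

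The macrophage inflammatory CC ligands, which macrophages and T cells make and follow, were lower too, 5 of 5, where 26.2% of all genes were lower. Ccl3, Ccl4 and Ccl9 reached the filter level through the untreated libraries alone, in which they are high. Ccl6, a CCR1 ligand in mouse, had the second highest mean ligand FPKM in untreated nerve, and was at 28.0, 23.5 and 54.9 CPM in the conduit libraries, against 337, 188 and 340.3 CPM in the untreated libraries (log2 fold change -3.02 ± 0.39 SE, adjusted p = 0.000759). Ccl3 was at 0.467, 0.141 and 0.524 CPM in the conduit libraries, against 7.25, 4.10 and 8.81 CPM in the untreated libraries (log2 fold change -4.14 ± 0.53 SE, adjusted p = 0.000742). Ccl4, its close relative, was at 0.0825, 0 and 0.131 CPM in the conduit libraries, against 2.16, 1.62 and 3.13 CPM in the untreated libraries (log2 fold change -4.94 ± 0.75 SE, adjusted p = 0.00152). Both Ccl3 and Ccl4 are products of activated macrophages, and neither overlapped between groups. Ccl5, made by T cells as well as macrophages, differed least of the 5, at 1.46, 1.44 and 1.07 CPM in the conduit libraries, against 5.43, 2.79 and 5.09 CPM in the untreated libraries (log2 fold change -1.74 ± 0.34 SE, adjusted p = 0.00486). For Ccl9, a CCR1 ligand in mouse, the conduit group as a whole held 3 counts, and the ratio of pooled CPM was 43.4 in favour of untreated nerve (95% counting interval 14.9 to 211, adjusted p = 0.000931). The log2 fold change of Ccl4 was -5.65 without conduit replicate 3, and that of Ccl9 was -6.16 without conduit replicate 1 and -4.71 without conduit replicate 3. In the same libraries all 8 macrophage markers fell, and their summed level was 357 to 613 CPM in conduit and 2710 to 3204 CPM in untreated nerves. Their part in these ligand values was not tested.

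The ligands of CCR3 and CCR4 gave no call among 4 tested (edgeR, adjusted), nor with DESeq2, and 1, Ccl22, had an unadjusted p under 0.05. Ccl24, an eotaxin, was at 9.51, 6.61 and 13.0 CPM in the conduit libraries, against 11.7, 13.3 and 22.5 CPM in the untreated libraries (log2 fold change -0.71 ± 0.33 SE, adjusted p = 0.111). The groups overlapped in 1 pair of libraries, and the gene was called lower with scaling by library totals (-1.08, adjusted p = 0.0284) and with limma on FPKM with its low-value filter (0.0241). Ccl11, the first eotaxin described, was at 2.56, 5.17 and 11.9 CPM in the conduit libraries, against 3.05, 4.73 and 11.3 CPM in the untreated libraries (log2 fold change 0.04 ± 0.64 SE, adjusted p = 0.961), with a spread within each group wider than the difference between them. Its sign turned with library totals and with single libraries left out. Ccl22 and Ccl17, the CCR4 ligands that dendritic cells make, were scarce. Both reached the filter level through the conduit libraries alone, the group with the higher mean. Ccl22 was at 0.577, 1.05 and 0.471 CPM in conduit and 0.303, 0.343 and 0.161 CPM in untreated nerves (log2 fold change 1.36 ± 0.51 SE, adjusted p = 0.0571), without overlap, and Ccl17 had a log2 fold change of 1.27 ± 0.70 with overlap. Of the dendritic cell markers, 3 of 6 fell and 1 rose (Zbtb46), with sums of 19.8 to 25.9 CPM in conduit and 40.6 to 45.9 CPM in untreated nerves. That list also holds Ccr7 and Xcr1, and its part in these values was not tested.

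Among CC ligands of lymphoid tissue and epithelia, Ccl21 was called. Ccl21, which lymphatic endothelium secretes to guide CCR7-bearing cells, was at 24.1, 7.55 and 46.1 CPM in the conduit libraries, against 44.8, 98.4 and 163 CPM in the untreated libraries (log2 fold change -1.98 ± 0.68 SE, adjusted p = 0.0430). Conduit replicate 3 lay just above the lowest untreated library, so the groups overlapped. The call was lost without conduit replicate 1 (adjusted p = 0.110), conduit replicate 2 (0.0722), untreated replicate 2 (0.0763) or untreated replicate 3 (0.126). It was also lost with robust dispersions (0.0622) and with limma on FPKM without its low-value filter. The log2 fold change was -2.65 without conduit replicate 3. Ccl19, the other CCR7 ligand, was at 2.26 ± 0.889 CPM in conduit and 2.25 ± 1.16 CPM in untreated nerves (SD, n = 3; log2 fold change 0.01 ± 0.48). Ccl27, a skin chemokine that binds CCR10, had a log2 fold change of 0.51 ± 0.41. Ccl20, the ligand of CCR6, was at 0.962, 0.0565 and 0.0262 CPM in conduit and 1.23, 0.626 and 1.08 CPM in untreated nerves (log2 fold change -1.49 ± 1.05 SE, adjusted p = 0.272). Conduit replicate 1 alone among the conduit libraries was at the untreated level, and without it the log2 fold change of Ccl20 was -4.46 (adjusted p = 0.00491). With all libraries kept, limma on FPKM with its low-value filter also called Ccl20 lower. Ccl20 reached the filter level through the untreated libraries alone, in which it is high. Its conduit counts were 35, 2 and 1, so the fit without conduit replicate 1 rests on few conduit counts.

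The ligands of CXCR2, which attract neutrophils, were at low counts in most libraries, and 1 of 4 could be tested. Cxcl1 was at 1.04, 0.678 and 0.786 CPM in conduit and 1.80, 3.57 and 0.897 CPM in untreated nerves (log2 fold change -1.32 ± 0.53 SE, adjusted p = 0.0736). It overlapped between groups and was called lower without untreated replicate 3 (-1.68, adjusted p = 0.0222), with library totals (0.0295) and with DESeq2 (0.0439). Limma on FPKM with its low-value filter also called Cxcl1 lower. Most counts of Cxcl3 and Cxcl6 lay in 1 library, untreated replicate 2. Cxcl3 had 0, 0 and 0 counts in the conduit libraries and 5, 220 and 1 counts in the untreated libraries. Cxcl6 had 0, 1 and 3 counts in conduit and 12, 66 and 2 counts in untreated libraries, and Cxcl2 had 0, 0 and 5 counts in conduit and 8, 20 and 5 counts in untreated libraries. All 4 were highest in untreated replicate 2. These paralogs resemble one another, and reads may have been split among them. Cxcr2, their receptor on neutrophils, was at 0.0275, 0.226 and 0.367 CPM in the conduit libraries, against 0.606, 1.76 and 0.897 CPM in the untreated libraries (log2 fold change -2.37 ± 0.77 SE, adjusted p = 0.0359), without overlap. Its call was lost without conduit replicate 1 (adjusted p = 0.0649), conduit replicate 2 (0.0959), untreated replicate 2 (0.104) or untreated replicate 3 (0.0585), and its log2 fold change was -3.05 without conduit replicate 3. Of 8 neutrophil markers 6 were tested and 3 fell (S100a8, S100a9 and Csf3r), with sums of 9.76 to 17.7 CPM in conduit and 50.5 to 106 CPM in untreated nerves. The part of the neutrophil markers in the Cxcr2 values was not tested.

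The CXCR3 ligands, which interferon induces and which attract activated T cells, did not move together. Cxcl10 was at 1.81, 1.44 and 1.62 CPM in the conduit libraries, against 26.9, 26.7 and 13.0 CPM in the untreated libraries (log2 fold change -3.77 ± 0.33 SE, adjusted p = 0.000152). Its groups did not overlap, and the call held in every alternative. Cxcl9 was at 16.4, 7.49 and 8.43 CPM in the conduit libraries, against 4.54, 3.43 and 6.24 CPM in the untreated libraries (log2 fold change 1.18 ± 0.36 SE, adjusted p = 0.0293), so the lowest conduit library was above the highest untreated one, and Cxcl9 was the only chemokine gene called higher. That call was lost without conduit replicate 1 (log2 fold change 0.77, adjusted p = 0.0880), untreated replicate 1 (0.0679) or untreated replicate 2 (0.0758). It was also lost with scaling by library totals (0.80, adjusted p = 0.0906) and with limma on FPKM (any filter or pseudocount). Cxcl11 was at 0.275, 0.254 and 0.0262 CPM in conduit and 1.90, 0.606 and 0.322 CPM in untreated nerves (log2 fold change -2.34 ± 0.90 SE, adjusted p = 0.0636), without overlap. Cxcl11 reached the filter level through the untreated libraries alone, in which it is high. It was called lower without untreated replicate 3 (-2.75, adjusted p = 0.0421), with library totals (0.0327) and with DESeq2 (0.0311). Within a library, Cxcl9 FPKM over Cxcl10 FPKM was 18.5, 10.6 and 10.6 in the conduit libraries, against 0.346, 0.263 and 0.984 in the untreated libraries. The order of these genes per length was therefore turned round, with Cxcl9 above Cxcl10 in every conduit library and below it in every untreated one. Cxcr3, their shared receptor on T and NK cells, was at 0.0825, 0.141 and 0.367 CPM in the conduit libraries, against 2.81, 2.08 and 2.83 CPM in the untreated libraries (log2 fold change -3.68 ± 0.55 SE, adjusted p = 0.00143), with a log2 fold change of -4.45 without conduit replicate 3. Of 8 T and NK cell markers 6 fell. Most of their summed level came from Cd4, which rat macrophages also carry, and Cd8a. The other 6, of which 4 fell, summed to 2.65 to 4.10 CPM in conduit and 7.92 to 15.7 CPM in untreated nerves. All 8 together summed to 38.8 to 73.3 CPM in conduit and 181 to 269 CPM in untreated nerves, and their part in the Cxcr3 values was not tested.

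Since Cxcl11, Cxcl10 and Cxcl9 are direct neighbours on chromosome 14 (GRCr8) and yet differed in direction, the 250 bases before the annotated start of each are shown (RefSeq, 5′ to 3′), with Cxcl14, the ligand of the largest level difference. Capitals mark matches, on either strand, to the interferon-stimulated response element core (GAAA, any 2 bases, GAAA), the interferon-gamma activated site TTCNNNGAA, the AP-1 site TGANTCA and the NF-kB consensus. Cxcl11 lies at chr14:15973478-15973727, GRCr8, plus strand, Cxcl10 at chr14:15988816-15989065, GRCr8, plus strand, Cxcl9 at chr14:16006916-16007165, GRCr8, plus strand and Cxcl14 at chr17:8322900-8323149, GRCr8, plus strand.
Cxcl11: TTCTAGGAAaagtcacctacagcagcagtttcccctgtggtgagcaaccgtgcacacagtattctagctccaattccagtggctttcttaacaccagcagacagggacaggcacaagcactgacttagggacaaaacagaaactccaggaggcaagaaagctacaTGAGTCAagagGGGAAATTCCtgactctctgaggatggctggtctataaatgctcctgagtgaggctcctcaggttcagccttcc
Cxcl10: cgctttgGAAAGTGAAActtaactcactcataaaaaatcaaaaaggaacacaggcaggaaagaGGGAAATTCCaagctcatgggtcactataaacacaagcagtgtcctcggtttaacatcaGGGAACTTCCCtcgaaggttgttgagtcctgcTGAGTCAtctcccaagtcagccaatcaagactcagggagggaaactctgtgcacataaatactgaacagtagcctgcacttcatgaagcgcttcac
Cxcl9: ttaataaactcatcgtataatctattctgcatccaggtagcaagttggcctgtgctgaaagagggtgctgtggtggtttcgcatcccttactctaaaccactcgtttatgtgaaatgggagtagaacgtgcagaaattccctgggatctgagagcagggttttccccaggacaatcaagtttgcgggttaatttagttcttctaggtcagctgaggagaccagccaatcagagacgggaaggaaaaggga
Cxcl14: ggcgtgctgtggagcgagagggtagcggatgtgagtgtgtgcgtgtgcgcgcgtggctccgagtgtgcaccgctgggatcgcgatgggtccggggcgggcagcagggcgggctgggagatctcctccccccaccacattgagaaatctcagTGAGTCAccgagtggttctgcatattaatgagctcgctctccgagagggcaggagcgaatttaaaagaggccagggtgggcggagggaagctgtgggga
The Cxcl10 window holds 1 response element core, 1 AP-1 site and 3 NF-kB matches, of which 2 overlap each other. The Cxcl11 window holds 1 interferon-gamma activated site, 1 AP-1 site and 1 NF-kB match with the same letters as one in Cxcl10. The Cxcl14 window holds 1 AP-1 site, and the Cxcl9 window holds none of these strings, which says only that these letters are not in it. Among all 33469 promoters in the table, 3.41% hold the response element core, 7.67% the activated site, 6.34% the AP-1 site and 6.33% the NF-kB consensus in the same window. Promoters were matched for 44 of the 58 chemokine and receptor genes, of which 4.55%, 9.09%, 15.9% and 20.5% hold them.

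Cxcl14, a CXC chemokine whose receptor is still debated, had the highest FPKM of all ligands in untreated nerve. It was at 29.4, 38.3 and 57.4 CPM in the conduit libraries, against 1523, 1896 and 1097 CPM in the untreated libraries (log2 fold change -5.17 ± 0.35 SE, adjusted p = 8.76e-05). The conduit libraries were about as far from the untreated ones in each leave-one-out fit, from -5.44 to -4.96. Cxcl16, a membrane-bound ligand that is shed and binds CXCR6, was at 11.1, 16.2 and 14.8 CPM in the conduit libraries, against 39.7, 32.6 and 33.1 CPM in the untreated libraries (log2 fold change -1.32 ± 0.18 SE, adjusted p = 0.000853), without overlap. The remaining ligands of this kind were not called. Cxcl12, the CXCR4 ligand that stromal and endothelial cells make, was at 158, 191 and 209.9 CPM in the conduit libraries, against 205, 275 and 323 CPM in the untreated libraries (log2 fold change -0.52 ± 0.20 SE, adjusted p = 0.0634). Conduit replicate 3 lay just above the lowest untreated library. Cxcl12 was called lower without untreated replicate 1 (-0.68, adjusted p = 0.0190), with library totals (-0.91, adjusted p = 0.00857) and with DESeq2 (0.0444). Limma on FPKM (any filter or pseudocount) also called Cxcl12 lower. Within a library, Cxcl14 FPKM over Cxcl12 FPKM was 0.794, 0.857 and 1.17 in the conduit libraries, against 31.8, 29.4 and 14.5 in the untreated libraries. Cx3cl1, fractalkine, which neurons and endothelium carry on their membranes, was at 13.9, 13.7 and 12.7 CPM in the conduit libraries, against 15.5, 13.6 and 12.1 CPM in the untreated libraries (log2 fold change -0.03 ± 0.15 SE, adjusted p = 0.872), a difference within the spread of the untreated libraries. With library totals it was called lower (-0.42, adjusted p = 0.0439), beside a median of -0.43 for all genes under that scaling. Limma on FPKM with its low-value filter also called Cx3cl1 lower. Cxcl13, which attracts B cells through CXCR5, was at 5.99, 2.77 and 14.6 CPM in the conduit libraries, against 14.5, 18.7 and 12.0 CPM in the untreated libraries (log2 fold change -0.95 ± 0.54 SE, adjusted p = 0.178). Conduit replicate 3 lay within the untreated range, and without it the log2 fold change of Cxcl13 was -1.74 (adjusted p = 0.0132). With all libraries kept, limma on FPKM with its low-value filter also called Cxcl13 lower.

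**Figure D2:**
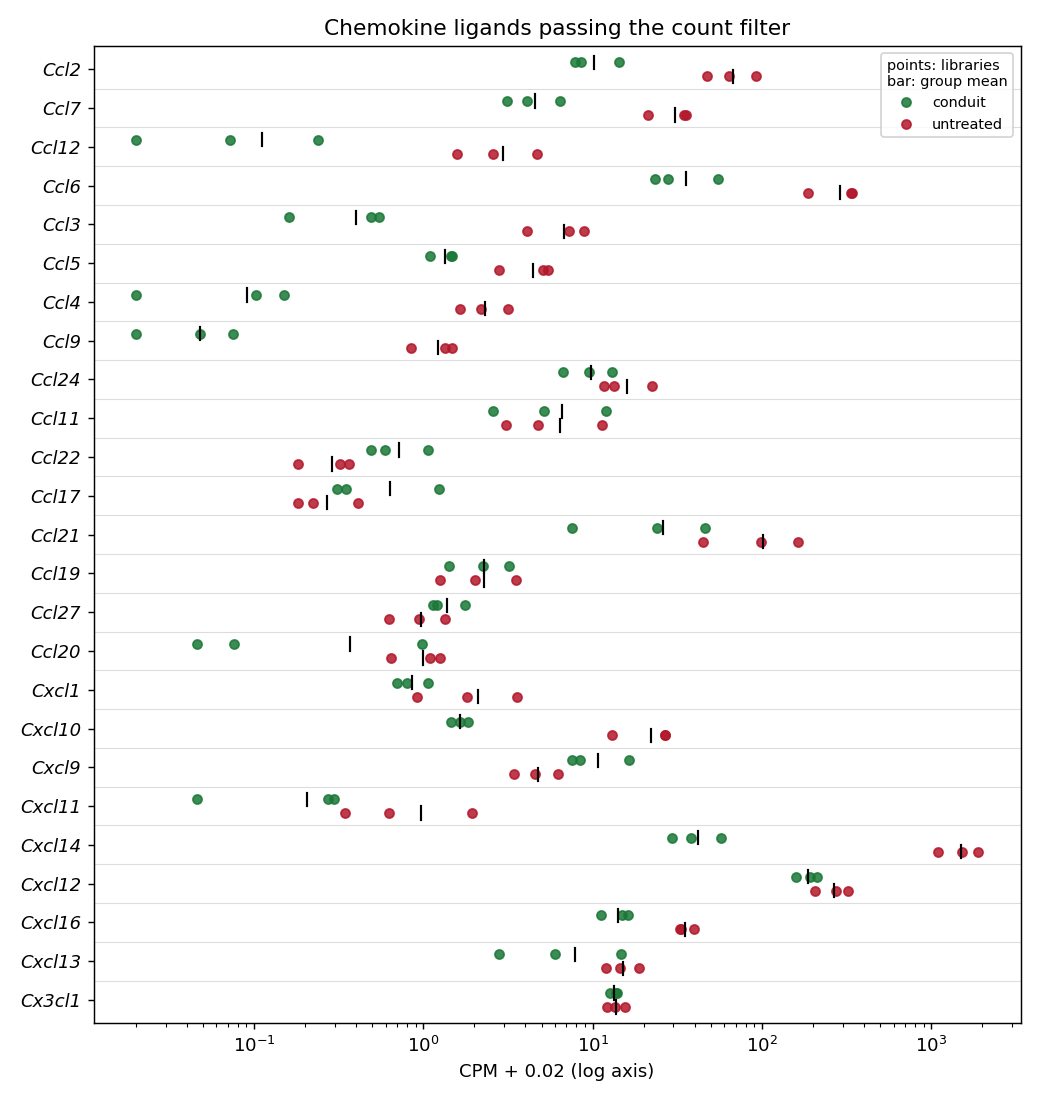
CPM plus 0.02 on a log axis for the 25 ligands that passed the count filter, with 1 point per library (green conduit, above; red untreated, below) and a black bar at each group mean. The Cxcl14, Cxcl10, Ccl6 and Ccl2 points form separate groups, with conduit lower, while those of Cx3cl1, Ccl19 and Ccl11 overlap.

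Signalling receptors were mostly lower in conduit nerves. Of 13 tested, 11 fell, where 26.2% of all genes were lower, and Xcr1 and Cxcr5 were not called. Cxcr3, Ccr7, Cxcr2, Cxcr6, Ccr6, Ccr3 and Xcr1, 7 of the 13, reached the filter level through the untreated libraries alone, in which they are high, and 6 of these 7 are among the 11. Ccr1, a receptor of monocytes, macrophages and neutrophils, was at 3.46, 7.35 and 10.1 CPM in the conduit libraries, against 39.5, 35.7 and 27.2 CPM in the untreated libraries (log2 fold change -2.29 ± 0.37 SE, adjusted p = 0.00199). Ccr2, which brings monocytes out of bone marrow and into tissue, was at 2.91, 3.17 and 9.43 CPM in the conduit libraries, against 40.9, 34.1 and 26.6 CPM in the untreated libraries (log2 fold change -2.71 ± 0.47 SE, adjusted p = 0.00270). In both genes conduit replicate 3 was the highest conduit library, yet below every untreated one. Without it the log2 fold change of Ccr2 was -3.44. Cx3cr1, the fractalkine receptor of patrolling monocytes and tissue macrophages, was at 0.605, 0.989 and 1.41 CPM in the conduit libraries, against 6.82, 14.2 and 6.56 CPM in the untreated libraries (log2 fold change -3.19 ± 0.45 SE, adjusted p = 0.00112). The macrophage marker sums given above were lower in the same libraries, and the macrophage markers Cd68 and Csf1r stood at 9.28 ± 3.88 CPM in conduit and 113 ± 9.18 CPM in untreated nerves and at 67.9 ± 27.6 CPM in conduit and 301 ± 69.2 CPM in untreated nerves (SD, n = 3 each). The 8 markers had a median log2 fold change of -2.93, beside -2.29 ± 0.37, -2.71 ± 0.47 and -3.19 ± 0.45 for Ccr1, Ccr2 and Cx3cr1. Their part in the receptor values was not tested.

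Cxcr4, the CXCL12 receptor carried by many leukocytes and by endothelial tip cells, was at 3.90, 3.25 and 6.55 CPM in the conduit libraries, against 17.5, 15.6 and 37.3 CPM in the untreated libraries (log2 fold change -2.36 ± 0.41 SE, adjusted p = 0.00289). Untreated replicate 3 was the highest, and the lowest untreated library was still above all conduit libraries. The receptors of lymphocytes and dendritic cells given next were at low levels in both groups. Ccr7, which guides dendritic cells and naive T cells to lymph nodes, was at 0.165, 0.113 and 0.105 CPM in the conduit libraries, against 1.15, 1.07 and 2.12 CPM in the untreated libraries (log2 fold change -3.47 ± 0.49 SE, adjusted p = 0.00109). Cxcr6, the CXCL16 receptor of T and NK cells, was at 0.137, 0.254 and 0.314 CPM in the conduit libraries, against 1.13, 0.828 and 1.06 CPM in the untreated libraries (log2 fold change -2.08 ± 0.44 SE, adjusted p = 0.00659). Neither gene overlapped between groups. Ccr6 (log2 fold change -3.85 ± 0.78, or -4.45 without conduit replicate 1) and Ccr3, the eotaxin receptor (-3.07 ± 0.76, or -4.57 without conduit replicate 2), fell at mean levels under 1 CPM in both groups. Eosinophils carry CCR3, and of their markers Siglec5, Epx, Prg2 and Il5ra, Siglec5 alone passed the filter and fell, while Epx was at 0 counts in every library. Xcr1, a receptor of cross-presenting dendritic cells, had a log2 fold change of -1.55 ± 0.90 (adjusted p = 0.190).

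Cxcr5, the CXCL13 receptor known from B cells and follicular helper T cells, was the one tested signalling receptor with a positive log2 fold change. It was at 7.45, 8.11 and 10.3 CPM in the conduit libraries, against 4.76, 4.26 and 7.55 CPM in the untreated libraries (log2 fold change 0.64 ± 0.27 SE, adjusted p = 0.0859), with overlap in 1 pair of libraries. It was called higher without untreated replicate 3 (0.94, adjusted p = 0.0219) and with DESeq2 (0.0453). Of 6 B and plasma cell markers 3 could be tested, and Cd79a and Jchain fell. The sums of the 6 were 1.26 to 3.08 CPM in conduit and 5.99 to 10.3 CPM in untreated nerves. The part of these markers in the Cxcr5 values was not tested.

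The atypical receptors gave no call among 5 (edgeR, adjusted), none with DESeq2 and none at an unadjusted p under 0.05, although all 5 reached the filter level in every library. Ackr1, the Duffy antigen receptor of red cells and venular endothelium, was the most abundant receptor per length, at 33.1 ± 1.53 FPKM in conduit and 53.6 ± 14.5 FPKM in untreated nerves (SD, n = 3). In CPM it was at 43.6, 44.6 and 45.3 CPM in the conduit libraries, against 42.7, 68.8 and 53.1 CPM in the untreated libraries (log2 fold change -0.30 ± 0.18 SE, adjusted p = 0.194). It was called lower without untreated replicate 1 (-0.46, adjusted p = 0.0455) and with library totals (-0.70, adjusted p = 0.0190). Limma on FPKM (any filter or pseudocount) also called Ackr1 lower. Ackr3, which scavenges CXCL12, was at 32.1, 48.1 and 58.4 CPM in the conduit libraries, against 34.8, 34.6 and 55.3 CPM in the untreated libraries (log2 fold change 0.15 ± 0.27 SE, adjusted p = 0.663), with overlapping groups and a sign that turned with library totals. Ackr1 and Ackr3 together held 75.1% to 83.9% of the receptor FPKM in the conduit libraries and 46.7% to 52.8% in the untreated libraries. Ackr4, the scavenger of CCL19 and CCL21, had a log2 fold change of -0.52 ± 0.58, and without conduit replicate 3 of -1.36 (adjusted p = 0.0487). Ccrl2, which binds chemerin, had a log2 fold change of -0.17 ± 0.27, and Ackr2, a scavenger of inflammatory CC chemokines, one of 0.13 ± 0.66 with a sign that turned with library totals. Of 6 endothelial markers Pecam1 fell and the others were not called, with sums of 467 to 703 CPM in conduit and 614 to 953 CPM in untreated nerves. Erythroid markers, with adjusted p-values of 0.661 to 0.984 in all 3, ran from 908 to 3731 CPM in conduit and from 1303 to 4440 CPM in untreated nerves.

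**Figure D3:**
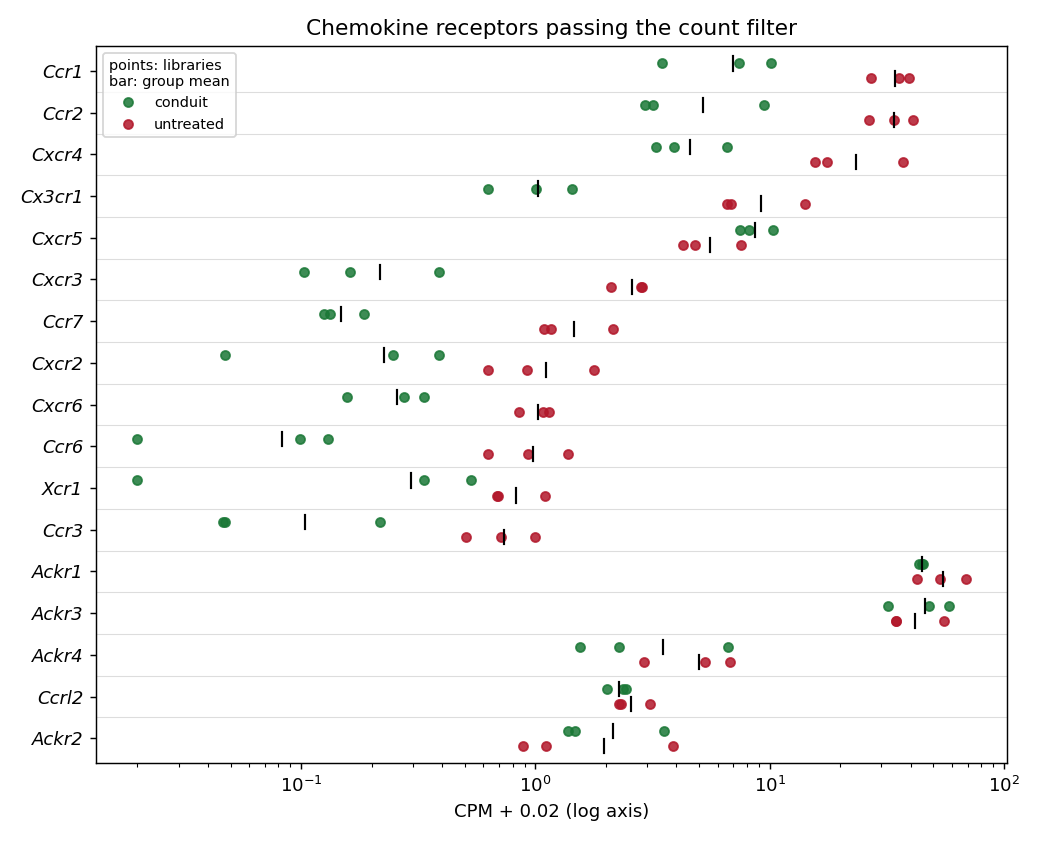
CPM plus 0.02 on a log axis for 17 receptors that passed the count filter, with 1 point per library (green conduit, above; red untreated, below) and a black bar at each group mean. The points of Ccr1, Ccr2 and Cx3cr1 separate with conduit lower, while those of Ackr1 to Ackr4 and Ccrl2 overlap.

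Set beside their ligands, several receptors were called where the ligand was not. The log2 fold change of Cx3cr1 was -3.19 ± 0.45 and that of its ligand Cx3cl1 -0.03 ± 0.15. For Cxcr4 and Cxcl12 the values were -2.36 ± 0.41 and -0.52 ± 0.20, for Ccr6 and Ccl20 -3.85 ± 0.78 and -1.49 ± 1.05, and for Ccr3 and Ccl24 -3.07 ± 0.76 and -0.71 ± 0.33. The value of Ccl11, another CCR3 ligand, was 0.04 ± 0.64. Of these receptors, Ccr6 and Ccr3 reached the filter level through the untreated libraries alone. Of these ligands, Cx3cl1, Cxcl12, Ccl20 and Ccl24 were called lower under some alternatives. In other pairs both were lower, as for Ccr2 (-2.71 ± 0.47) with Ccl2 (-2.73 ± 0.32) and Cxcr6 (-2.08 ± 0.44) with Cxcl16 (-1.32 ± 0.18). Cxcr3 (-3.68 ± 0.55) fell with Cxcl10 (-3.77 ± 0.33), while its other ligand Cxcl9 (1.18 ± 0.36) rose. Cxcr5 (0.64 ± 0.27) and Cxcl13 (-0.95 ± 0.54) had opposite signs, and neither was called. Differences between the log2 fold changes of a receptor and its ligand were not tested.

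**Figure D4:**
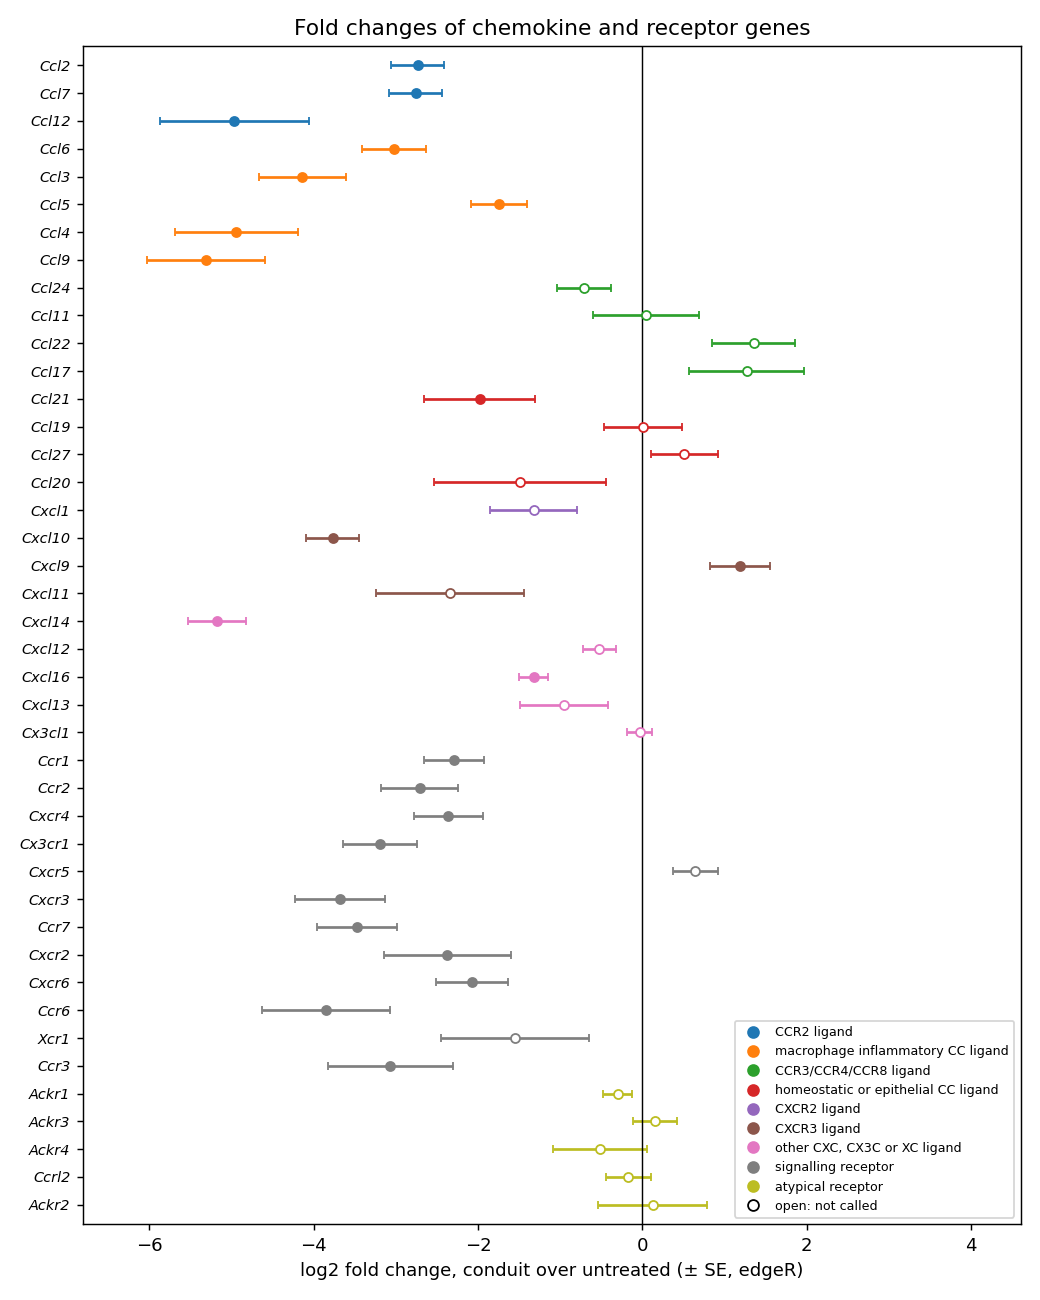
Log2 fold change, conduit over untreated, with its SE for 42 tested genes, coloured by role, with open points for genes not called. The CCR2 ligands and macrophage inflammatory CC ligands lie from -5.30 to -1.74, the atypical receptors from -0.52 to 0.15, and Cxcl9 is the only filled point right of 0.

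Many of these genes sit beside one another in the genome, a feature that the symbols do not use. By the order of protein-coding genes in RefSeq (GRCr8), 10 runs of 2 or more members had at most 1 other gene between them. Ccl5, Ccl9, Ccl6, Ccl3 and Ccl4 form 1 run, and all 5 fell, where 26.2% of all genes were lower. These are the macrophage inflammatory CC ligands given above, so the run adds no further calls. Of them, Ccl3, Ccl4 and Ccl9 reached the filter level through the untreated libraries alone. In the other CC run, Ccl2, Ccl7, Ccl11, Ccl12 and Ccl1, the 3 CCR2 ligands fell, while Ccl11, which lies between Ccl7 and Ccl12, had a log2 fold change of 0.04 ± 0.64 and Ccl1 had 1 count in all. In the run of Ccl17, Cx3cl1 and Ccl22, 0 of 3 were called by edgeR or DESeq2, and 1, Ccl22, had an unadjusted p under 0.05. Of these, Ccl17 and Ccl22 reached the filter level through the conduit libraries alone. Where neighbours resemble one another in sequence, reads may have been split among them, which was not tested.

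The genes that carry the signal inside the cell were described from a list of 32 signalling genes and of 16 genes for chemokine processing or for ligands and receptors outside the symbol pattern. Of the 32 signalling genes 19 fell and 3 rose, where 26.2% of all genes were lower and 24% higher. The Src-family kinase of myeloid cells Fgr (log2 fold change -2.94 ± 0.19), the PI3K gamma adaptor Pik3r5 (-3.09 ± 0.23) and Rgs18, a G protein inhibitor of haematopoietic cells (-2.96 ± 0.23), fell with adjusted p-values from 7.94e-05 to 0.00012. Gi proteins and arrestins present in most cells did not all follow. Gnai2 was at 620.4 ± 19.4 CPM in conduit and 719 ± 5.32 CPM in untreated nerves (log2 fold change -0.21 ± 0.12 SE, adjusted p = 0.186), and Arrb1 had a log2 fold change of -0.15 ± 0.13, whereas Arrb2 fell (-1.76 ± 0.18). The 3 that rose were Elmo1, a partner of DOCK proteins in Rac activation (log2 fold change 1.5 ± 0.13), the G protein subunit Gng2 (1.39 ± 0.18) and Prkcd, protein kinase C delta (0.44 ± 0.11). Prkcd lost its call with library totals (adjusted p = 0.736), without conduit replicate 1 (0.0566) and with limma on FPKM (any filter or pseudocount).

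Of the 16 other genes 14 were tested, 7 fell and 2 rose, so that 9 of 14 were called, not far from the 50.2% of all genes. Mmp9, a protease that trims chemokines, was at 0.0825, 0.113 and 0.210 CPM in the conduit libraries, against 11.2, 13.4 and 4.10 CPM in the untreated libraries (log2 fold change -6.11 ± 0.61 SE, adjusted p = 0.000260). Pf4, platelet factor 4, a CXC chemokine also made by tissue macrophages, was at 18.4 ± 5.98 CPM in conduit and 119.5 ± 31.0 CPM in untreated nerves (log2 fold change -2.70 ± 0.30), and Sdc1, a heparan sulphate proteoglycan that holds chemokines at the cell surface, had a log2 fold change of -2.17 ± 0.24. The 2 sheddases of CX3CL1 and CXCL16 went apart. Adam10 rose (log2 fold change 1.52 ± 0.21 SE, adjusted p = 0.00103), while Adam17 fell (log2 fold change -0.45 ± 0.10 SE, adjusted p = 0.00993), a call lost without conduit replicate 2 (adjusted p = 0.0657) or conduit replicate 3 (0.0533). Hspg2, perlecan, rose (log2 fold change 1.32 ± 0.22).

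The other 15 genes did not pass the count filter and were not tested. Besides Cxcl2, Cxcl3, Cxcl6 and Ccl1 they were Ccl25, at 0 counts in every library, Ccl26, Ccl28, Xcl1, Cxcl17, Ccr4, Ccr8, Ccr9, Ccr10, Ccr1l1 and Cxcr1. The highest count in any library was 1 for Ccl26, 5 for Ccl28, 10 for Cxcl17, 4 for Ccr4, 7 for Ccr8, 4 for Ccr10 and 6 for Ccr1l1. Ccr9, a gut-homing receptor, had 0, 1 and 0 counts in the conduit libraries and 10, 4 and 38 counts in the untreated libraries. Xcl1, lymphotactin, had 0, 2 and 0 counts in the conduit libraries and 18, 8 and 2 counts in the untreated libraries. Cxcr1 had 1 count in all, in untreated replicate 3.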

How the data were processed

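RNA was sequenced from 6 libraries of rat sciatic nerve, 3 conduit and 3 untreated. Per the labels' protocols, the RNA came from a TRIzol extraction and was enriched for mRNA before library preparation (VAHTS Universal V10); strand is not stated, so overlapping genes may not have been told apart. The tools listed in the submitters' processing notes are HISAT2, fastp, HTSeq and DESeq2, and the build is mRatBN7.2. The authors deposited raw counts per gene and FPKM per library. That FPKM was the count divided by the library total and a fixed length was checked in the 20504 genes detected in 2 or more libraries and held in 20504 (tolerance 0.0001). No column was left unused.

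Genes were tested in edgeR 4.0.16 (R 4.3.3) by its quasi-likelihood F test, two-sided, after filterByExpr (minimum count 10) and TMM scaling, with the group alone in the model; the script was tested on simulated data. SE is the log2 fold change over the square root of F. A group with 3 or fewer counts is given as a pooled ratio with an exact Poisson 95% interval, which covers counting error only. Alternatives were RLE scaling, library totals, DESeq2 1.42.0, no low-count filter, 5 CPM in 3 libraries, a replicate block, robust dispersions, limma 3.58.1 on log2(FPKM + 1) for genes reaching 0.5 FPKM in 3 libraries, a pseudocount of 0.1, no such filter, and leaving out each library in turn.

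The members, lists and rule for named genes were chosen with earlier results of these data known. The rule gives every library's value for Ccl2, Cxcl9, Cxcr2, called members with a group mean of at least 1 CPM and uncalled members with a mean of at least 10 CPM; of the partner lists it names up to 4 called genes per direction. Other members given by library, Gnai2, Arrb1, Arrb2 and the 4 promoters were chosen after their values were seen. Gene order and promoters are from RefSeq GRCr8, a build other than that of the counts, matched by symbol (58 and 44 of 58 genes). Further marker lists gave, as CPM sums in conduit and untreated nerves, mast cells 46.4 to 110 and 41.3 to 56.1, eosinophils 3.52 to 7.57 and 9.23 to 25.1, fibroblasts 12396 to 26138 and 7036 to 14074, and adipocytes 294 to 1410 and 333 to 734. Some members, partner genes and markers that entered the fits and counts are not reported here. Of 6 mast cell symbols, Mcpt1 was not matched. By mean CPM the leading genes of the lists were Lyz2 and Mrc1 (macrophage), S100a9 and Csf3r (neutrophil), Cd4 and Cd8a (T and NK), Jchain and Cd79a (B and plasma), Zbtb46 and Itgax (dendritic), Pecam1 and Vwf (endothelial), Siglec5 and Il5ra (eosinophil), Cpa3 and Tpsb2 (mast), Col1a1 and Col1a2 (fibroblast), Acta1 and Ckm (muscle), Fabp4 and Adipoq (adipocyte), and Hba-a1 and Hbb (erythroid).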

Additional observations from a re-analysis of the deposited data

How the results depend on the processing

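Of the 24 calls among chemokine and receptor genes, Ccl21, Cxcl9 and Cxcr2 were lost under some alternative; the other 21 kept their call wherever they were tested. The 23 lower calls were all kept with RLE scaling, library totals, DESeq2, no low-count filter and a replicate block. With 5 CPM in 3 libraries 12 were lower, since only 22 members were tested, and leaving out 1 library gave 21 to 25 lower and 0 to 2 higher. The number higher was 0 with library totals and with limma on FPKM (any filter or pseudocount), and 2 with DESeq2 or a replicate block, where Cxcr5 joined Cxcl9. The replicate numbers did not pair the libraries: same-numbered libraries had deviation correlations of 0.18, -0.047 and 0.11, and 3 of 6 libraries correlated best with their own number. The replicate block gave 26 members lower, adding Ccl24, Cxcl11 and Cxcl12, and 7514 genes changed, against 7760.

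Over all genes, 6554 were lower and 2291 higher with library totals, 2044 higher with limma on log2(FPKM + 1), 2034 with 0.1 added, and 6263 lower and 2254 higher without the FPKM filter; the library totals and FPKM are not scaled by TMM. Leaving out 1 library gave 5840 to 7882 genes changed, and 22 to 27 partner genes lower and 4 to 6 higher.

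Some uncalled genes changed sign. With library totals Ccl11 was at -0.32, Ccl19 at -0.39, Ackr3 at -0.23 and Ackr2 at -0.24. With limma on log2(FPKM + 1) Ccl11 was at -0.32, Ccl19 at -0.26 and Ackr3 at -0.23, with the same values without the filter, where Ackr2 was at -0.037; with 0.1 added they were at -0.39, -0.32 and -0.24. With a replicate block Ccl11 was at -0.011. Leaving out single libraries, Ccl11 ran from -0.68 to 0.76, Ccl19 from -0.29 to 0.48, Cx3cl1 from -0.12 to 0.062, Ackr3 from -0.012 to 0.41 and Ackr2 from -0.42 to 1.11. The cause of these changes was not tested. Other members under 1 CPM rest on few counts.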
